A study of Mus musculus with 26 samples.

Results

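The set described here holds 38 genes that act in G2 and mitosis, taken by symbol from a table of 24091 genes. All 38 were found and had enough counts to be tested. They code for the cyclins, Cdk1 and Cks subunits (6 genes), mitotic kinases and the chromosomal passenger complex (6), the spindle checkpoint and anaphase-promoting complex (7), the centromere and kinetochore (5), spindle kinesins and microtubule proteins (4), cytokinesis (5) and chromosome structure (5).

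RNA was sequenced from LSK cells, the bone marrow fraction that lacks lineage markers, carries Sca-1 and c-Kit and holds stem and multipotent progenitor cells. All mice were C57BL/6 and carried SCLtTA/BCR-ABL, a transgene pair that models chronic myeloid leukaemia (CML) by inducing BCR-ABL under stem and progenitor cell control elements. The groups differed in Spred1, whose product restrains RAS-ERK signalling. There were 26 libraries: 6 global KO (global Spred1 KO CML mice), 5 Spred1 wt, 5 HSC KO (Spred1HSCΔ/Δ, deleted in haematopoietic cells by Mx1-cre), 5 HSC wt (Spred1HSCwt/wt) and 5 EC KO (Spred1ECΔ/Δ, endothelial). The HSC KO and HSC wt mice received 7 doses of 250 µg of poly(I:C), an inducer of interferon, every 2 days. Poly(I:C) switches on Mx1-cre, and the sample labels do not say whether HSC wt mice carried it. Mx1-cre is also active in other interferon-responsive tissues. The promoter behind the endothelial deletion, the age of the mice and any poly(I:C) in the remaining groups were not given. EC wt was not analysed here, so EC KO was set against Spred1 wt, and this control is shared with the global KO comparison. The numbers of the libraries are names only.

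Mitosis is driven by Cdk1 bound to B-type cyclins, which build up through G2 and are destroyed when the anaphase-promoting complex (APC/C) with Cdc20 lets the chromatids part. Transcripts of these genes are low in resting cells and rise together late in the cycle, a timing held by DREAM and MuvB complexes at a promoter element called the cell cycle genes homology region (CHR), often with CCAAT boxes bound by NF-Y. In the LSK fraction most long-term stem cells rest, while multipotent progenitors cycle. A bulk library therefore cannot tell fewer dividing cells from less of these transcripts per cell.

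The promoters of the set are shown first, because their sequence does not depend on the values measured here. The set was put together from known G2 and mitosis genes, whose timing is tied to these same promoter elements. An excess of the motifs therefore describes the set and is not an independent test of it. RefSeq windows on GRCm38.p6 (250 bases before to 50 after the start of transcription) were found for 33 of the 38 genes, and Ccna2, Tpx2, Aurkb, Kif20a and Smc4 had none. Each window was searched on both strands for TTTGAA (the CHR core) and for CCAAT, and matches of the 2 motifs can share at most 1 base at their ends. Some genes had more than 1 window, and for these the highest count of each motif was taken separately. Motifs counted together in a gene need therefore not share a window. TTTGAA stood in a window of 26 of the 33 genes (78.8%), against 20.2% of all 27025 genes with a window and 14.5% of the 10320 such genes that were tested. At least 2 CCAAT boxes stood in 20 of the 33 (60.6%), against 13.3% of all genes. Both features together occurred in 18 of the 33 (54.5%) and in 2.81% of all genes. Among 36 other mitotic genes 55.6% had TTTGAA, and among 19 S phase genes 10.5% did. Below are the 120 bases before the start of 5 genes, with TTTGAA (or TTCAAA, its other strand) and CCAAT (or ATTGG) in capitals: Cdk1 and Cdc20, with both motifs close to the start, Ccnb2, with evenly spaced CCAAT boxes, Top2a, the member of highest level per kilobase, and Nuf2, with neither motif.
Cdk1: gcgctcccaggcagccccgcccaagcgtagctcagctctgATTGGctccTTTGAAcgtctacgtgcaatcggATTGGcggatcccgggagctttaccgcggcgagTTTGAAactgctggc
Cdc20: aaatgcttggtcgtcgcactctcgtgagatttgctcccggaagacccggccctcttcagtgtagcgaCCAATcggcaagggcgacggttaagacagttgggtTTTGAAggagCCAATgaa
Ccnb2: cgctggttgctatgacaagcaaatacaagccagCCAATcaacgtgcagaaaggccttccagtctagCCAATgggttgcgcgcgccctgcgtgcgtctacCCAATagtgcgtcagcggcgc
Top2a: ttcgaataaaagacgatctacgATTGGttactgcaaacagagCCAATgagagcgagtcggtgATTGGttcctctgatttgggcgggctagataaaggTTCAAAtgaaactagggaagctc
Nuf2: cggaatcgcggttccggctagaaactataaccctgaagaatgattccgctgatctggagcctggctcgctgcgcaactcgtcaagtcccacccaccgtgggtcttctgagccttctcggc

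All 5 stretches lie on the minus strand of GRCm38.p6: Cdk1 at chr10:69352913-69353032, Cdc20 at chr4:118437344-118437463, Ccnb2 at chr9:70421555-70421674, Top2a at chr11:99024190-99024309 and Nuf2 at chr1:169531465-169531584. Cdk1 had TTTGAA at positions -71 and -15, counted from the start of transcription, with ATTGG at -80 and -48. Cdc20 had TTTGAA at -18 between CCAAT boxes at -53 and -8. Ccnb2 had CCAAT at -87, -54 and -21, and its 2 TTTGAA matches, at -167 and 5, fall outside the letters shown. Besides Nuf2, the windows of Birc5, Mad2l1 and Pttg1 held neither motif, so 4 of the 33 (12.1%) lacked both, against 47.7% of all genes. In the GENCODE annotation 26 bases of the Cdk1 stretch and 9 of the Cdc20 stretch fall in annotated exons, and 0 bases of the other 3. The gene and strand of these exons were not looked up. A missing match says only that these letters are not in the window.

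The libraries held 14816071 to 26714325 counts each, and the lowest count of a member in any library was 190. Levels are given in CPM, a count scaled to the library's total after TMM normalization. Spred1 was lower in each knockout group than in the wild-type group it was set against. The log2 difference was -1.81 in global KO, -1.55 in HSC KO and -0.70 in EC KO (edgeR adjusted p = 2.86e-08, 4.14e-06 and 0.00527). In EC KO the deletion is labelled endothelial, yet this lower level was found in LSK RNA. Loss of Spred1 in endothelial cells and less Spred1 in the LSK fraction therefore cannot be told apart in EC KO. The LSK markers were present in every group, with a summed level of 1630 to 2740 CPM for 5 of 5 markers. Markers of other cells were also found in all groups: the 12 mast cell and basophil genes summed to 1740 to 16200 CPM over the libraries, the 10 macrophage and monocyte genes to 150 to 730 CPM and the 11 neutrophil genes to 62.4 to 934 CPM, with 0 of their genes at 0 in any group.

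Mki67 and Top2a had the highest CPM of the set. Mki67, the proliferation antigen that coats mitotic chromosomes, averaged 1134 CPM over the 26 libraries, and Top2a, which untangles sister chromatids, averaged 945.7 CPM. Per kilobase of gene model, the scale on which genes can be compared, Top2a led with 171 CPM per kb. The Cks1b subunit of the Cdk1 complex followed with 136, Mki67 with 113, Smc4, a core condensin subunit with 109.5, and Ube2c, the ubiquitin-conjugating enzyme of the APC/C, with 104. Pttg1, the securin that holds separase in check, was the lowest at 8.52 CPM per kb and 14.8 CPM. Cdk1 stood in mid-order at 46.8 CPM per kb, close to Cdc20 (45.0) and Tpx2 (44.9), the activator of Aurora A. These neighbours were closer to each other than the spread between libraries.

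The set varied little between libraries. The ratio of the highest to the lowest library had a median of 1.56 over the 38 genes, from 1.26 for Kif4, a motor on chromosome arms, to 2.07 for Pttg1. The SD of log2 levels within groups had a median of 0.152 for the members and 0.151 for the 8695 tested genes whose mean level lay in the members' range. For 7 members a part of the counts could belong to an overlapping gene, since the strand setting of counting is not given: Ccna2 overlaps Exosc9, Plk1 overlaps Dctn5, Cdc20 overlaps Elovl1, Kif20a overlaps Brd8 and Cdc23, and Tpx2, Smc4 and Ncapd2 hold small RNA genes.

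**Figure D1:**
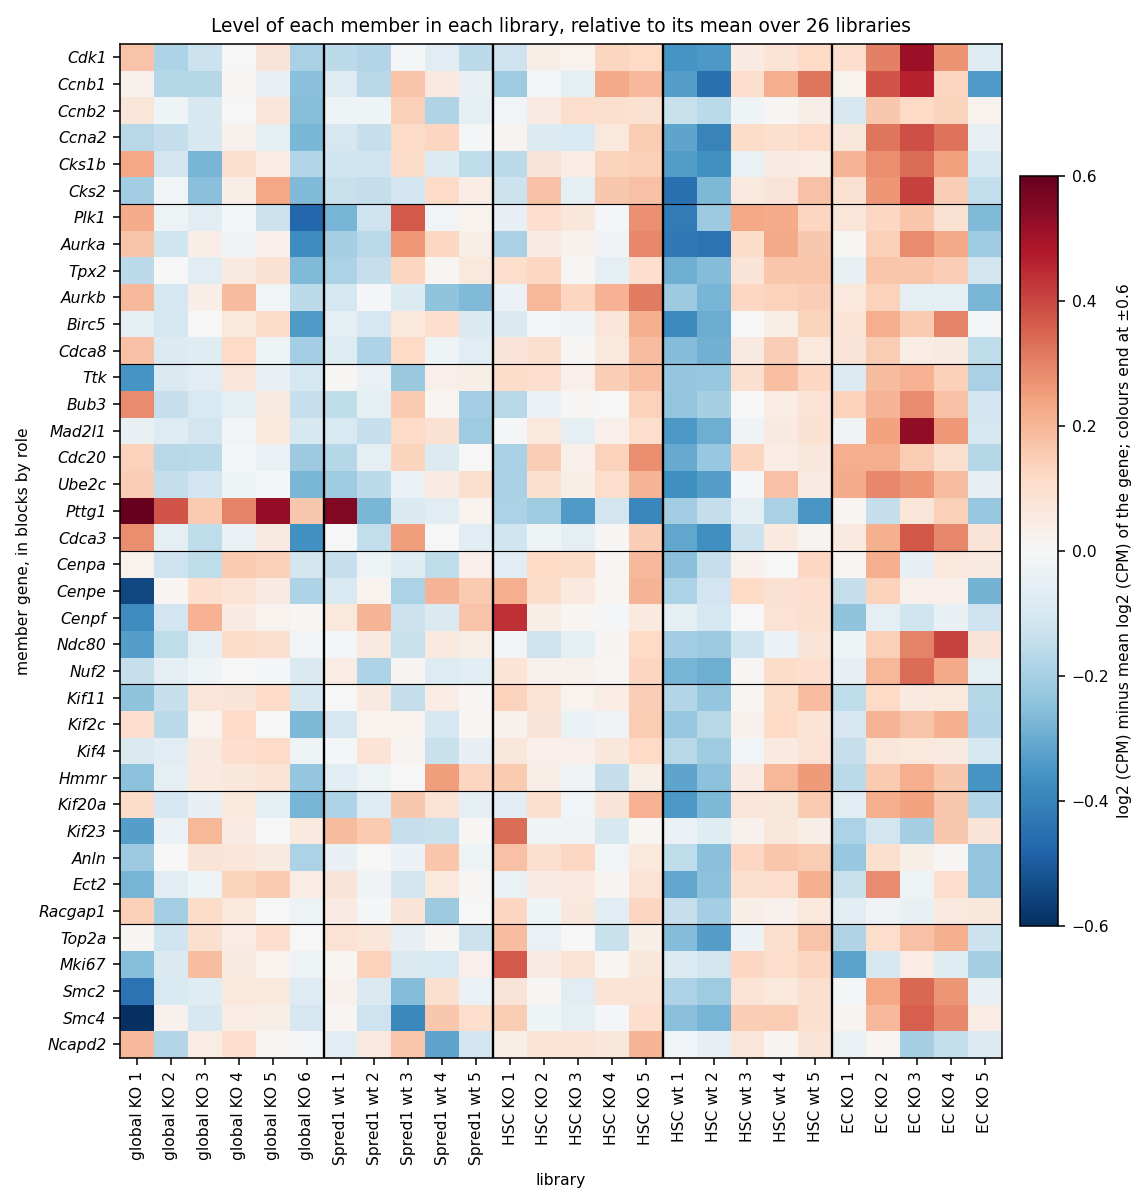
Level of each of the 38 genes (rows, in blocks by role) in each of the 26 libraries (columns, by group) as log2 CPM minus the gene's mean over all libraries, blue for lower and red for higher. HSC wt 1 and HSC wt 2 are blue in nearly every row, EC KO 2, 3 and 4 and HSC KO 5 are mostly red, and Pttg1 is red in the global KO libraries.

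Most of the set moved together from library to library. The number of members above their own median over the 26 libraries was 0 of 38 in HSC wt 1 and in HSC wt 2, against 27, 35 and 37 in the 3 other HSC wt libraries. It was 20, 26, 16, 23 and 36 in HSC KO and 14, 32, 29, 32 and 7 in EC KO. It was 19, 1, 14, 28, 23 and 4 in global KO and 9, 10, 18, 19 and 15 in Spred1 wt. Over all tested genes the same share lay between 46.3% and 54.5% in every library. Global KO, HSC wt and EC KO each held libraries with most members above their median and libraries with few.

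HSC wt 1 and HSC wt 2 stood apart. They were the 2 lowest of the 10 HSC libraries for 36 of the 38 members, and for 22 members one of them was the lowest of all 26 libraries. Their members' mean log2 level, relative to all libraries, was -0.25 and -0.24, against 0.05, 0.09 and 0.10 in HSC wt 3, 4 and 5. Other lists moved in the same libraries. The mean of 14 haematopoietic stem cell genes was 0.65 and 0.40 in HSC wt 1 and 2, against -0.08, -0.26 and -0.04 in the other 3, and the mean of 24 S phase genes was -0.24 and -0.19, against 0.01, 0.05 and 0.10. The 5 LSK markers were also highest there, at 0.35 and 0.36, and so was the mean of the 11 neutrophil genes, at 1.95 and 2.10, the highest of all 26 libraries. The part of these differences in the results below was not tested.

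**Figure D2:**
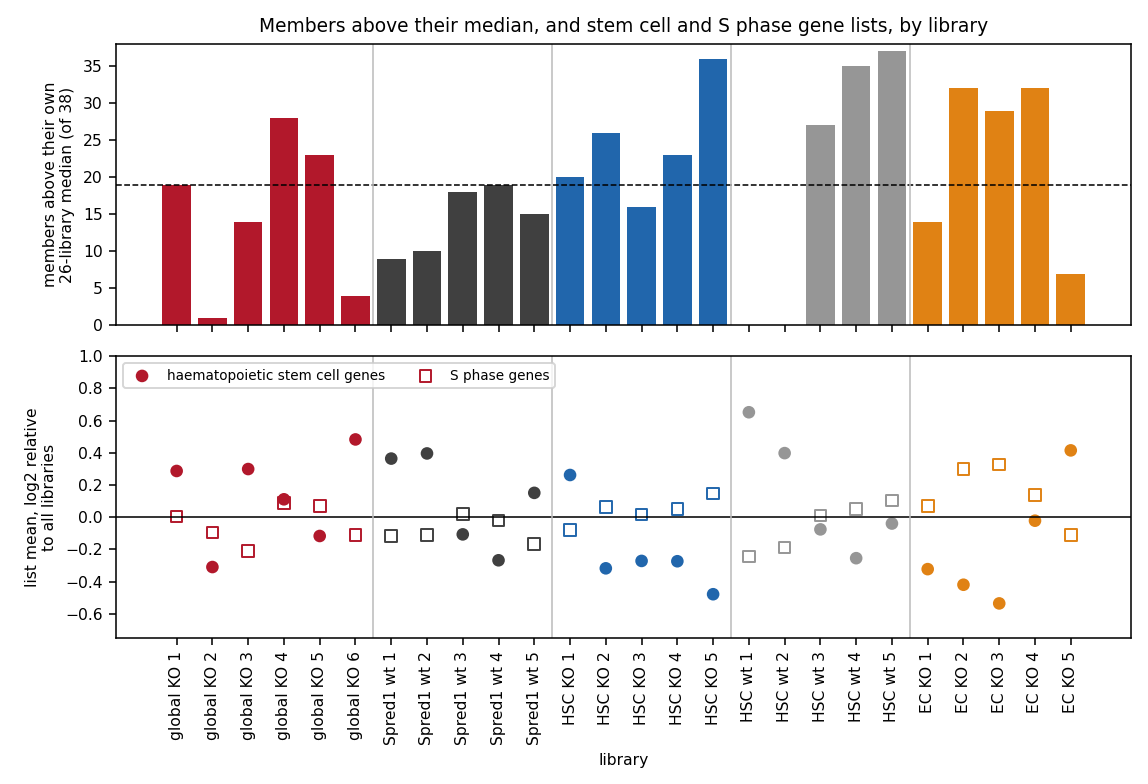
Top: number of the 38 members above their own 26-library median in each library, coloured by group, with a dashed line at 19. Bottom: mean log2 level, relative to all libraries, of 14 haematopoietic stem cell genes (filled circles) and 24 S phase genes (open squares). HSC wt 1 and 2 have 0 members above the median, with the stem cell mean at 0.65 and 0.40.

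Global KO was set against Spred1 wt to ask whether loss of Spred1 in all cells goes with altered mitotic transcripts in leukaemic LSK cells. None of the 38 genes rose or fell. In edgeR's quasi-likelihood test 0 passed an adjusted p of 0.05, where 0.0747% of all tested genes did, and DESeq2 and limma voom also called 0. Only Pttg1 had an unadjusted p under 0.05, so 1 of 38 members compares with 5.53% of all genes. The log2 difference was above 0 for 13 members and below 0 for 25, with a median of -0.02, while 54.5% of all genes were above 0 and their median was 0.01. The differences ran from -0.12 (Ccna2) to 0.32 (Pttg1), and the 95% intervals reached from -0.36 (Ccnb1) to 0.565 (Pttg1).

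Pttg1 levels were 22.9, 18.8, 16.1, 17.8, 20.9 and 16.2 CPM in the 6 global KO libraries, against 21.3, 11.96, 13.6, 13.8 and 14.7 CPM in the 5 Spred1 wt libraries. Spred1 wt 1 lay among the knockout libraries and the other 4 controls lay below all of them, so the groups overlapped. The log2 difference was 0.32 (SE 0.12, edgeR adjusted p = 0.708) and did not pass.

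Cdk1, the kinase itself, had 149, 116, 121, 132, 139.5 and 116 CPM in the global KO libraries and 119, 117, 131, 126 and 118.5 CPM in the controls. The controls fell within the range of the knockout libraries, and the log2 difference was 0.08 (SE 0.0984, edgeR adjusted p = 0.996). Ccnb1, its cyclin B1 partner, was at 109.6 ± 8.62 CPM (mean ± SD, n = 6) against 117 ± 10.6 (n = 5). Ccna2, the cyclin A of S phase and G2, was at 191 ± 13.3 against 208 ± 17.6 CPM. Neither difference exceeded the larger of the SDs.

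Aurkb, the kinase of the passenger complex that corrects wrong attachments, had the second smallest unadjusted p of the set in this comparison, at 115 ± 11.7 CPM against 102 ± 7.75 (log2 difference 0.17, SE 0.0906, edgeR adjusted p = 0.915). The kinetochore motor Cenpe was at 154 ± 24.1 against 164 ± 18.6 CPM, and the spindle protein Hmmr at 93.6 ± 9.59 against 101 ± 9.39. Global KO 1 was the lowest of all 26 libraries for 8 members, among them Cenpe (109.8 CPM), Smc2 (173) and Smc4 (291). In that library the mean log2 level, relative to all libraries, was -0.23 for the members of at least 4 kb and 0.12 for those under 2.5 kb, and the macrophage and monocyte genes had their highest mean of all libraries, 2.37. The part of either in these levels was not tested. Racgap1, the GTPase-activating subunit of centralspindlin, was at 134 ± 11.2 against 131 ± 10.2 CPM, and the condensin subunit Ncapd2 at 413 ± 35.1 against 392 ± 48.4. For 0 of the 38 genes did every knockout library lie above every control, against 0.112% of all genes.

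**Figure D3:**
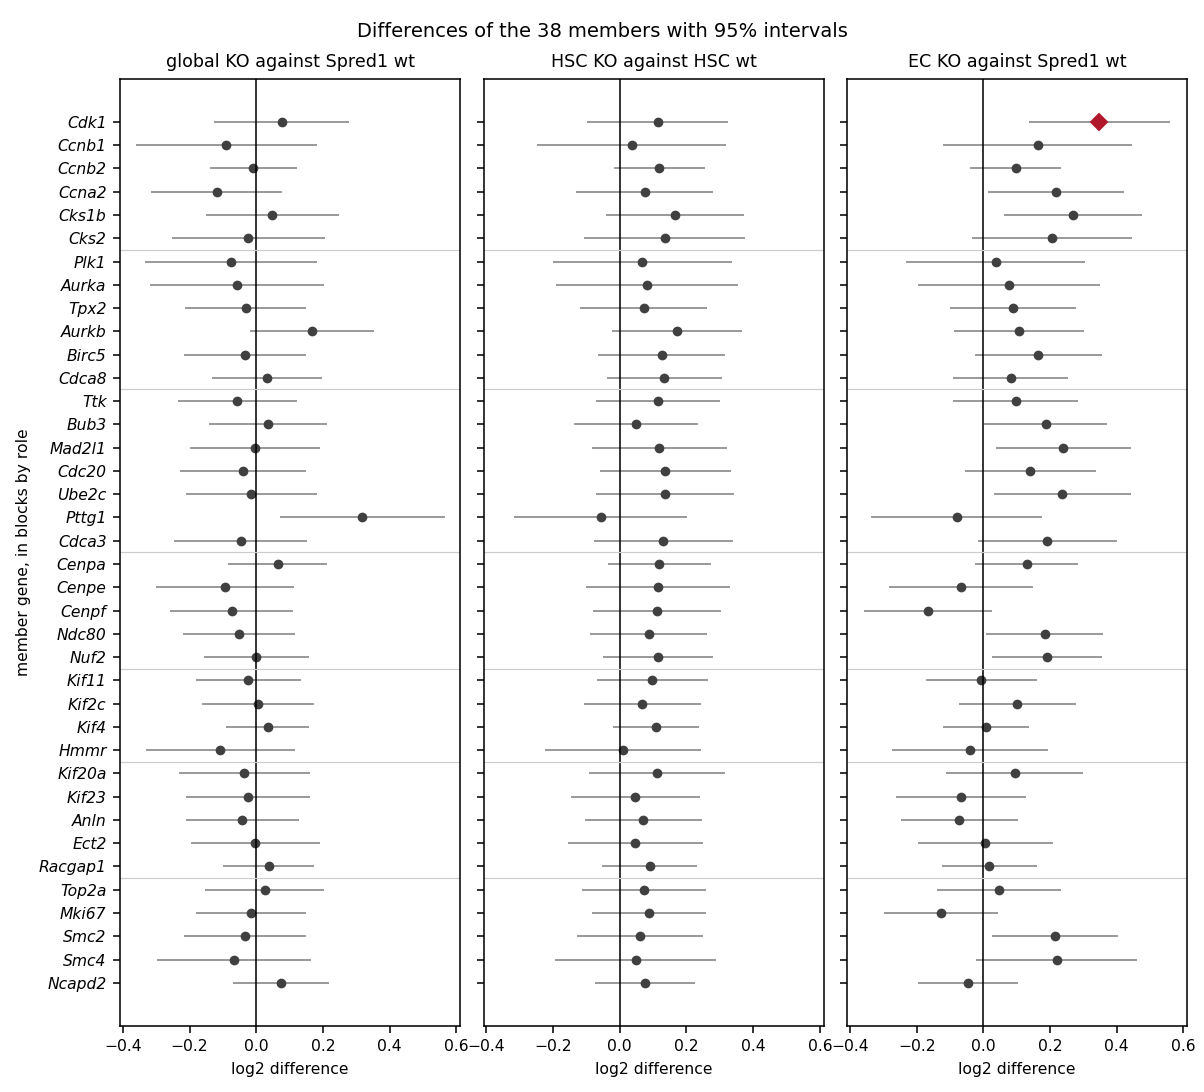
Log2 difference (points) with its 95% interval (lines) for each of the 38 members for the global KO, HSC KO and EC KO groups relative to their controls, from 1 edgeR fit. The red diamond, Cdk1 in EC KO, is the 1 member that passed. Nearly all points lie right of 0 in the HSC KO panel, and all 38 intervals there include 0.

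HSC KO was set against HSC wt to ask the same of Spred1 loss by Mx1-cre, with poly(I:C) in both groups. By Xist, read as female from 500 CPM, HSC KO 1, 4 and 5 and HSC wt 4 and 5 came from female mice. The remaining libraries of these groups came from male mice. The set leaned upwards, and none of its genes rose. The log2 difference was above 0 for 37 of 38 members, where 56.9% of all genes were above 0, and the median was 0.09 against 0.02 for all genes. The lean depended on the method: by DESeq2 37 members were above 0 (median 0.085), and by limma voom 28 were (median 0.043). In edgeR 0 members passed, where 0.0224% of all genes did, 0 had an unadjusted p under 0.05, where 2.16% of all genes did, and DESeq2 and limma voom called 0. The differences ran from -0.06 (Pttg1) to 0.17 (Aurkb), and the highest bound of an interval was 0.375 (Cks2).

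HSC wt 1 and 2 were the lowest controls for most members, so leaving them out had to lower these differences. Without both, a choice made after their values were seen and given as a description, 14 members were above 0 and 24 below, and the median was -0.02. Without HSC wt 1 alone it was 0.0509, and without HSC wt 2 alone 0.0491. In the same comparison 0 of the 14 stem cell genes were above 0 (median -0.30) and 22 of 24 S phase genes were (median 0.09), with 0 passing in either list.

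Cdk1 levels were 121.5, 135, 134, 145 and 144 CPM in the HSC KO libraries and 103.6, 104, 137, 139.8 and 144 CPM in the HSC wt libraries. HSC wt 1 and 2 lay below all 5 knockout libraries, the other 3 controls lay among them, and the log2 difference was 0.11 (SE 0.103, edgeR adjusted p = 0.999). Ccnb1 was at 93.2, 85.9, 126, 136.5 and 146 CPM in HSC wt against 101 to 137 CPM in HSC KO. There HSC wt 1 and 2 again lay below all knockout libraries, and HSC wt 5 lay above all of them. Plk1, the kinase of mitotic entry and spindle poles, was at 67.2, 77.3, 105.5, 104.9 and 98.1 CPM in the HSC wt libraries, against 86.8 to 109 CPM in HSC KO.

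The members of smallest p in their roles had group means a little apart and libraries that overlapped. Aurkb was at 126 ± 10.9 against 112 ± 15.9 CPM (log2 difference 0.17, SE 0.0943), Ccnb2, the Golgi-linked cyclin B2, at 85.7 ± 2.96 against 78.9 ± 4.77, and Cdc20, the APC/C activator, at 122 ± 14.3 against 111 ± 14.4 (n = 5 each). The edgeR adjusted p was 0.999 for each. Cenpa, the histone that marks centromeres, had a log2 difference of 0.12, Kif4 of 0.11 and Racgap1 of 0.09. Mki67 levels were 1459, 1170, 1198, 1140 and 1185 CPM in HSC KO, and 1066, 1047, 1229, 1216 and 1233 CPM in HSC wt. HSC KO 1 was the highest of all libraries for Mki67, and the log2 difference of Mki67 was 0.09 (SE 0.0831). In HSC KO 1 the mean log2 level, relative to all libraries, was 0.17 for the members of at least 4 kb and -0.11 for those under 2.5 kb. The erythroid genes had their highest mean of all libraries there, 3.37. The part of either in the Mki67 level was not tested. For 0 members did all knockout libraries lie above all controls, against 0.441% of all genes.

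EC KO was set against Spred1 wt to ask whether LSK cells differ in mice with an endothelial deletion of Spred1, and here Cdk1 rose. It was the 1 member of 38 that passed in edgeR, where 7.96% of all tested genes passed, so the set had no more calls than its background. An unadjusted p under 0.05 was found for 9 members, all higher, where 25.1% of all genes had one. The log2 difference was above 0 for 29 members and below 0 for 9, where 53.5% of all genes were above 0, and the median was 0.10 against 0.02. For 0 members did every knockout library lie above every control, against 2.29% of all genes.

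Cdk1 (mm10, chr10:69336635-69352912) had 142, 163, 189, 159 and 125 CPM in the EC KO libraries and 119, 117, 131, 126 and 118.5 CPM in Spred1 wt. EC KO 1 to 4 lay above all controls and EC KO 5 lay among them. The log2 difference was 0.35 (SE 0.103, 95% interval 0.14 to 0.56, 1.27-fold, edgeR adjusted p = 0.0368). The direction was the same in all 23 alternatives run, and the call was kept in 10 of them, with adjusted p from 0.0101 to 0.147. It was lost without any one of Spred1 wt 1, 2, 4 and 5 or EC KO 2, 3 and 4 (0.0678, 0.0855, 0.0546, 0.102, 0.0787, 0.147 and 0.0761). It was also lost with a sex covariate (0.0928), with HSC wt as control (0.0507), without the low-count filter (0.0527), with only the compared groups in the fit (0.11) and in 2 alternatives described further on. By Xist, read as female from 500 CPM, EC KO 1 and 2 came from female mice, and the 5 Spred1 wt and the other 3 EC KO libraries from male mice.

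The partners of Cdk1 leaned the same way without passing. All 6 genes of the cyclin, Cdk1 and Cks group were above 0, with a median of 0.21, the highest of the 7 roles. Cks1b stood at 117, 123, 128, 120.4 and 94.4 CPM in EC KO against 93.6, 93.4, 109.7, 96.0 and 91.4 CPM in Spred1 wt (log2 difference 0.27, SE 0.101, edgeR adjusted p = 0.0948), and 4 of 5 knockout libraries lay above all controls. Ccna2 stood at 217, 259, 271, 259.9 and 201 CPM against 193.5, 188, 224, 227 and 206 CPM (0.22, SE 0.0991, adjusted p = 0.169), with EC KO 2, 3 and 4 above all controls. Ccnb1 was at 131 ± 27.4 against 117 ± 10.6 CPM and Ccnb2 at 85.9 ± 6.12 against 80.3 ± 6.54.

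Checkpoint and kinetochore genes were split by gene. Mad2l1, which sequesters Cdc20 until the kinetochores are attached, had 109, 131, 159.7, 133 and 103 CPM in EC KO and 104, 101, 119.6, 118 and 95.3 CPM in Spred1 wt (0.24, SE 0.0984, edgeR adjusted p = 0.125). EC KO 2, 3 and 4 were again above all controls. Ube2c, with a log2 difference of 0.24, Bub3, a checkpoint scaffold, with 0.19, and Ndc80 and Nuf2, partners in the microtubule-binding complex of the kinetochore, with 0.18 and 0.19, had unadjusted p under 0.05 and did not pass. The long kinetochore genes Cenpe (-0.07) and Cenpf (-0.17) were below 0, as was Pttg1 (-0.08).

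Of the kinase and passenger complex genes 6 of 6 were above 0 in EC KO (median 0.09), of the spindle genes 2 of 4 (0.00) and of the cytokinesis genes 3 of 5 (0.01), and 0 passed. Plk1 was at 94.6, 98.0, 101, 95.7 and 74.7 CPM in EC KO against 74.1, 82.3, 116, 88.8 and 91.2 CPM in Spred1 wt, with 0 of 5 knockout libraries outside the controls' range. Aurkb was at 110.2 ± 11.7 against 102 ± 7.75 CPM, and Birc5, the survivin subunit of the passenger complex, at 96.6 ± 7.93 against 86.1 ± 5.48 (0.16, SE 0.0923, edgeR adjusted p = 0.269). The microtubule depolymerase Kif2c (0.10) and the midzone motor Kif20a (0.09) were above 0, its fellow motor Kif23 (-0.07) and the cleavage furrow scaffold Anln (-0.07) below. Cdc20, at 124 ± 13 against 112 ± 8.87 CPM, differed by less than the spread between libraries.

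**Figure D4:**
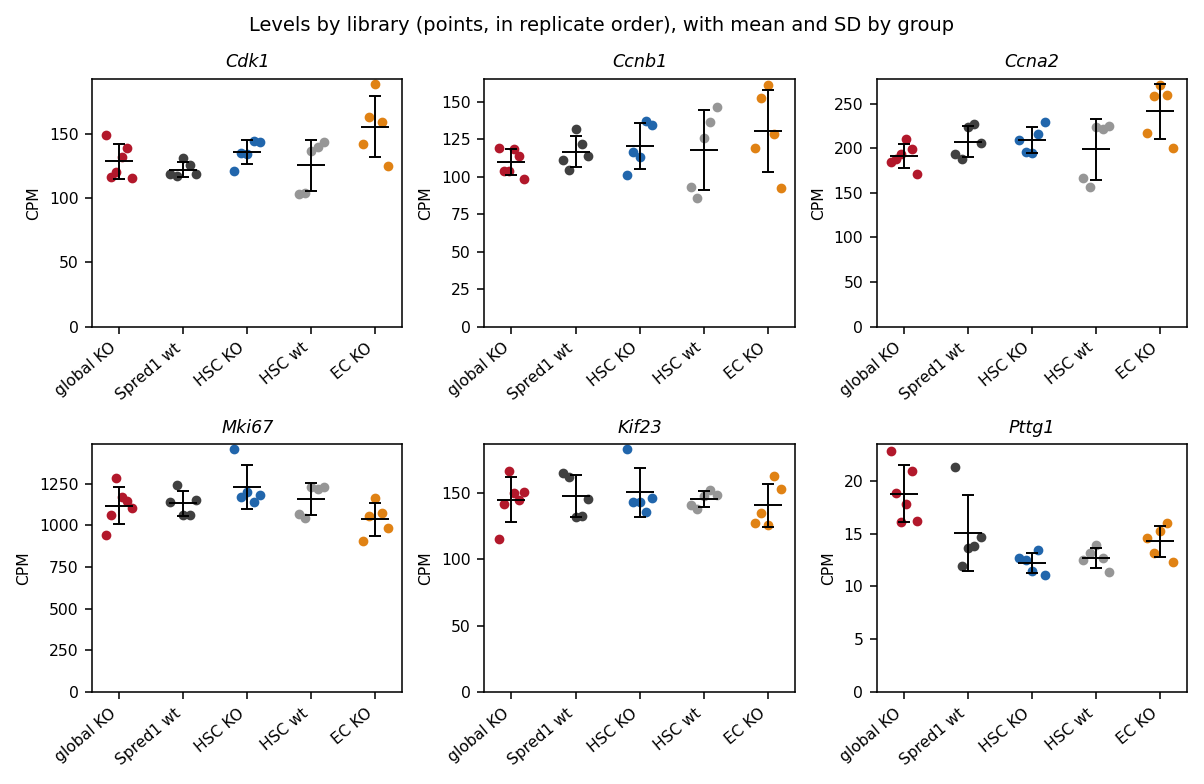
CPM of Cdk1, Ccnb1, Ccna2, Mki67, Kif23 and Pttg1 in each library (points), with the mean and SD of each group (n = 6 in global KO and 5 elsewhere). In EC KO 4 of 5 points for Cdk1 lie above all Spred1 wt points, HSC wt splits into 2 low and 3 higher points for Cdk1, Ccnb1 and Ccna2, and Mki67 and Kif23 have lower means in EC KO than in Spred1 wt.

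The condensin core genes Smc2 and Smc4 were above 0 in EC KO, Mki67 and the condensin subunit Ncapd2 below, and 0 passed. Smc2 stood at 232.5, 276, 298, 282 and 228 CPM in EC KO against 239, 221, 196, 250.4 and 228 CPM in Spred1 wt (0.21, SE 0.0923, edgeR adjusted p = 0.145), and its partner Smc4 was at 505 ± 52.3 against 434 ± 62.6 CPM (adjusted p = 0.242). Mki67 stood at 904, 1056, 1163, 1073 and 984 CPM against 1140, 1241, 1063, 1061 and 1153 CPM, and 3 of 5 knockout libraries lay below all controls (-0.13, SE 0.0831, adjusted p = 0.35). Ncapd2 was at 380 ± 22.1 against 392 ± 48.4 CPM (-0.05) and Top2a at 972 ± 119 against 941 ± 58.1 CPM.

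The differences in EC KO were ordered by gene length. Of the 14 members under 2.5 kb, 13 were above 0 (median 0.17), of the 9 members from 2.5 to 4 kb all 9 were (0.14), and of the 15 members of at least 4 kb 7 were (-0.01). All tested genes showed the same tilt: 68.4% of the 4732 genes under 2.5 kb were above 0 (median 0.11) and 37.7% of the 5144 genes of at least 4 kb were (median -0.06). The median log2 level, relative to all libraries, was taken over non-member genes of at least 5 kb and over those under 1.5 kb. The first minus the second was -0.21, -0.18, -0.36, -0.25 and -0.07 in EC KO and 0.07, 0.14, -0.12, -0.03 and 0.07 in Spred1 wt. With a length correction added after seeing the data, 30 members were above 0 and 8 below, Cdk1 was at 0.31 (edgeR adjusted p = 0.0602), 0 members passed, and Mki67 turned to 0.03.

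**Figure D5:**
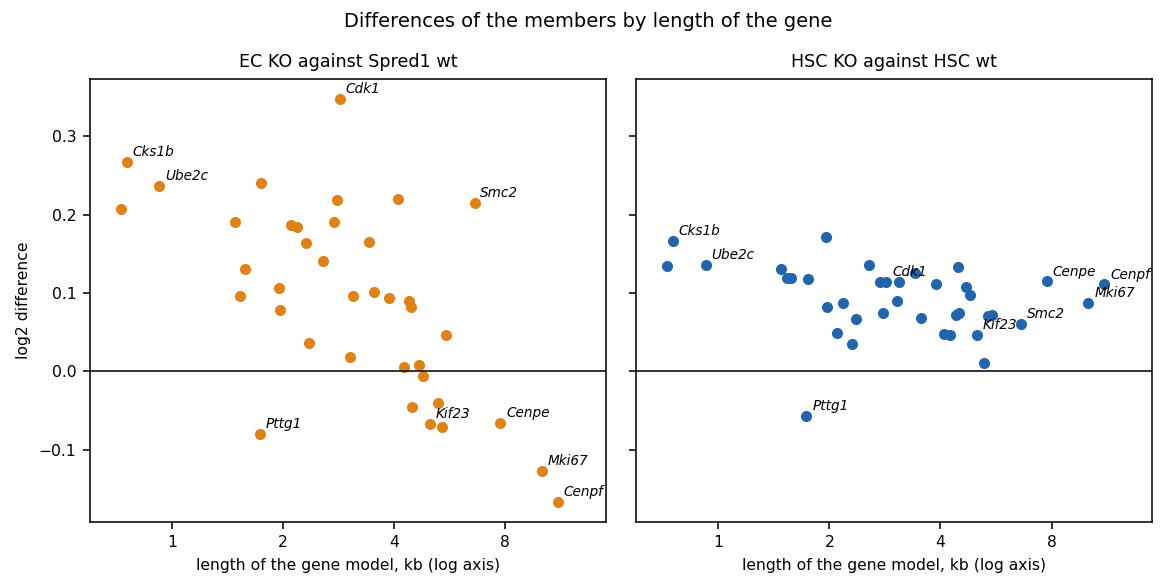
Log2 difference of each of the 38 members against the length of its gene model in kb (log axis), in EC KO against Spred1 wt (left) and HSC KO against HSC wt (right). In EC KO 13 of 14 members under 2.5 kb and 7 of 15 of at least 4 kb lie above 0; in HSC KO 13 of 14 and 15 of 15 do.

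Other features of the EC KO libraries moved beside the set. The 12 mast cell and basophil genes summed to 1960 to 5040 CPM in EC KO and 2840 to 16200 CPM in Spred1 wt, with 0 genes at 0 in either group, and the 10 macrophage and monocyte genes to 150 to 451 and 204 to 465 CPM. The 12 mast cell and basophil genes were split, with 9 below 0 and 3 above, up to a log2 difference of 1.16. An unadjusted p under 0.05 was found for 4 of those below and 1 of those above. In edgeR 3 of the 12 fell and 0 rose, where 7.96% of all tested genes passed. These were the proteases Mcpt4, Mcpt1 and Gzmb, with log2 differences of -3.74, -4.37 and -2.62 (adjusted p = 0.013, 0.0169 and 0.0242). The mean log2 level of the 12 genes, relative to all libraries, was 0.21 and 0.03 in EC KO 1 and 2, and -2.38, -2.54 and -2.44 in EC KO 3, 4 and 5. Without these 3 libraries, left out together after this was seen, 0 members passed and Cdk1 was at 0.32 (edgeR adjusted p = 0.128). The libraries kept, EC KO 1 and 2, came from female mice by Xist, and all Spred1 wt libraries from male mice. Knockout and sex therefore cannot be told apart in that fit. Kit, which codes for the sorted surface receptor c-Kit, fell by 0.85 (log2 difference; 516 ± 126 against 930 ± 182 CPM, edgeR adjusted p = 0.00447). With covariates for the mast cell and macrophage genes 6 members passed, of which Cdk1, Cks1b and Ube2c were higher and Cenpf, Kif23 and Mki67 lower. The share of all tested genes that passed in that fit is not given here, so this count has no background beside it. The part of the mast cell, macrophage and Kit transcripts in the differences of the set was not tested further.

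Genes of the same pathway outside the set were followed in lists grouped by role. In EC KO 53.5% of all tested genes were above 0 and 7.96% passed, and the counts below stand beside those shares. Of 44 other mitotic genes 34 were above 0 (median 0.07), 3 rose and 2 fell in edgeR: the kinase gene Pbk rose by 0.30, the kinetochore genes Spc25 and Ska1 rose by 0.33 and 0.35, and Arhgap11a, a RhoA regulator, and the midbody kinesin Kif14 fell by 0.34 and 0.22 (adjusted p from 0.00768 to 0.0425). Of 20 genes that control mitotic entry and G2/M transcription 17 were above 0. There Gmnn, the replication licensing inhibitor geminin, rose by 0.43 and Arpp19, an inhibitor of the phosphatase PP2A, rose by 0.23, while Foxm1, a transcription factor of G2/M genes, fell by 0.27 (90.5 ± 6.31 CPM in Spred1 wt and 74.95 ± 5.57 in EC KO, adjusted p = 0.0154).

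Of 17 APC/C genes and regulators 13 were above 0 in EC KO, and Fbxo5, the APC/C inhibitor Emi1, rose by 0.32, Cdc23 by 0.24 and Anapc4 by 0.22. Cdc23 overlaps Kif20a. All 24 S phase genes were above 0, with a median of 0.23, and 6 rose, among them Gins1, Prim1, Slbp, Tyms and Mcm6, by 0.25 to 0.38. Of 8 CDK inhibitors and RB family genes 7 were below 0, and Cdkn1a, which codes for the CDK inhibitor p21, fell by 0.85 (27.4 ± 5.13 against 49.4 ± 9.03 CPM, edgeR adjusted p = 0.0412). These calls were also lost under some alternatives: of 23, Arhgap11a kept its call in 22, Slbp in 20, Foxm1 in 19, and Spc25, Gins1 and Cdkn1a in 10 each.

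In the other knockouts the same lists gave 0 calls in edgeR. In HSC KO 42 of 44 other mitotic genes (median 0.08) and 15 of 17 APC/C genes were above 0, where 56.9% of all genes were. Of the 44, 1 had an unadjusted p under 0.05, where 2.16% of all genes did. The mean log2 level of the 44 genes, relative to all libraries, was -0.172 and -0.205 in HSC wt 1 and 2. It was 0.0553, 0.104 and 0.114 in HSC wt 3, 4 and 5. The part of HSC wt 1 and 2 in these counts was not tested. In global KO 22 of 44 other mitotic genes (median 0.00) and 17 of 24 S phase genes (median 0.06) were above 0. Of these lists 0 and 1 genes had an unadjusted p under 0.05, where 5.53% of all genes did. Of the 20 genes of mitotic entry control and G2/M transcription 18 were above 0 in global KO (median 0.06), where 54.5% of all genes were. Among these Cdc25c, the phosphatase that activates Cdk1, had a log2 difference of 0.18 (unadjusted p 0.0181, edgeR adjusted p = 0.789).

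HSC wt mice had poly(I:C), and none is given for Spred1 wt. The sample labels do not say whether HSC wt mice carried Mx1-cre. By Xist HSC wt 4 and 5 came from female mice, where all Spred1 wt libraries came from male mice. Treatment, any difference in genotype and sex therefore cannot be told apart between the 2 wild-type groups. Between HSC wt and Spred1 wt 13 members were above 0 and 25 below (median -0.02), where 47.9% of all genes were above 0. In edgeR 0 members passed, where 0.0299% of all genes did, and 0 had an unadjusted p under 0.05, where 6.35% did. The SD of Cdk1 was 19.9 CPM in HSC wt and 5.99 CPM in Spred1 wt, and that of Ccna2 34.0 and 17.6 CPM. With a sex covariate 3 members were above 0 and 35 below (median -0.06), by limma voom 32 above and 6 below (0.05), and without HSC wt 1 and 2 35 above and 3 below (0.11).

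The difference between the global KO effect and the HSC KO effect was tested as an interaction. It was below 0 for 36 of 38 members (median -0.12), where 47.8% of all genes were above 0. Here 0 members passed in edgeR, where 0.0149% of all genes did, and 1 member, Pttg1, had an unadjusted p under 0.05 (0.0403, log2 difference 0.38, adjusted p = 1), where 2.14% of all genes did. Without HSC wt 1 and 2 the median was 0.01. A difference of the set between the 2 kinds of knockout was not detectable with these libraries, at intervals that reached from -0.52 (Aurka) to 0.73 (Pttg1).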

How the data were processed

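LSK RNA of 26 libraries was measured as raw read counts per gene in 1 table, as deposited by the authors: whole numbers with no normalization. The submitters' processing notes name the build mm10 and the tools STAR 2.6.0 (an aligner), HTSeq 0.6.0 (a read counter), bcl2fastq 2.18.0.12 and edgeR 3.28.1. Which annotation was counted, and on which strand, is not given in the sources used here. Libraries were grouped by the genotype labels, which speak of mice. No batch is labelled, and the numbers given to libraries follow the accession order, so p-values measure the spread between libraries.

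Of 24091 genes, 5297 had 0 counts throughout and 13379 passed filterByExpr (minimum count 10). edgeR 4.0.16 (R 4.3.3, TMM scaling) fitted 5 group means to all 26 libraries by robust quasi-likelihood with 21 residual degrees of freedom, and two-sided F-tests were Benjamini-Hochberg adjusted over all tested genes at 0.05. Levels are CPM, and list means are log2 CPM with a prior count of 2, relative to all libraries. A gene's groups overlap unless every knockout library lies above, or below, every control. The depth of 14816071 to 26714325 counts per library was not limiting, since each member had at least 190. Gene length is that of the table. The script was tested on simulated counts.

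Alternatives were DESeq2 1.42.0, RLE and upper-quartile scaling, other filters, a fit of the compared groups, limma 3.58.1 voom, covariates for sex genes and for mast cell and macrophage genes, other wild-type controls and each library left out. Length correction, and leaving out HSC wt 1 and 2 or EC KO 3, 4 and 5, were added after seeing the data. The members and all gene lists were chosen with earlier results of these data known. Named are members that passed, the member of smallest p per role and knockout comparison, Cdk1, Ccnb1, Aurkb, Plk1, Cdc20, Top2a and Mki67, and the passing genes of other lists, of which 1 is not reported here. Further members, and the promoters shown, were chosen after their values or sequences were seen. Promoters are RefSeq windows on GRCm38.p6, and other sequences were not used here.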

Additional observations from a re-analysis of the deposited data

Results flagged for a closer look

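A single library stood far from the rest of its group, by Dixon's 95% limit, for 4 of 110 pairs of a named member and a group and for the mean of the whole set in 1 group. Chance alone sets off this limit in about 1 of 20 groups. Ncapd2 was at 465 CPM in HSC KO 5, where the other HSC KO libraries lay between 416 and 427 CPM, and Mki67 was at 1460 CPM in HSC KO 1 against 1140 to 1200 CPM. Smc2 was at 173 CPM in global KO 1, where the others lay between 220 and 245 CPM, and Plk1 was at 74.7 CPM in EC KO 5 against 94.6 to 101 CPM. The mean log2 level of the 38 members, relative to all libraries, was 0.133 in HSC KO 5 and 0.00645 to 0.0424 in the 4 other HSC KO libraries.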

How the results depend on the processing

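The number of members that passed was 0 under every alternative run for global KO, HSC KO, the wild-type groups and the interaction. In EC KO, where 1 passed, it was 0 without the low-count filter, with only the compared groups in the fit, with the sex covariate, with gene length correction and without EC KO 3, 4 and 5, and it was 3 by limma voom, 3 with HSC wt as control (Cks1b, Cdca3 and Ndc80, without Cdk1), 6 with the mast cell and macrophage covariates and 7 with the mean of both wild-type groups. Leaving out 1 library gave 0 to 3 members. The number was 0 without Spred1 wt 1, 2, 4 or 5 or EC KO 2, 3 or 4, and 3 without EC KO 5. The shares of all tested genes that passed under these alternatives are not given here, so the counts have no background beside them. The median of the members in EC KO stayed between 0.0513 and 0.135, and in global KO it lay on both sides of 0, between -0.0398 and 0.0206. Without HSC wt 1 and 2 the median was -0.022 in HSC KO, 0.11 between the wild-type groups and 0.015 for the interaction, which limma voom put at -0.0073. For these changes the cause was not tested, beyond fewer libraries where some were left out.

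Of 1099 alternatives to 49 single-gene differences, 11 had the other sign. These were Mki67 in HSC KO by limma voom (-0.0022) and, in EC KO, Plk1 with the sex covariate (-0.014), Plk1 and Mki67 with length correction (-0.015 and 0.035), Top2a with the mast cell and macrophage covariates (-0.13) and without EC KO 3, 4 and 5 (-0.029), and Aurkb with HSC wt as control (-0.026). Leaving out 1 library gave -0.046 to 0.14 for Plk1 and -0.0031 to 0.098 for Top2a in EC KO, and -0.018 to 0.069 for Racgap1 in global KO. No paired analysis was possible because the labels give no replicate numbers shared between groups. The median standard error of a member's log2 difference was 0.0898 in global KO and 0.0938 in HSC KO and EC KO. Changes of that size were not detectable with 5 or 6 libraries per group. Larger differences also did not pass, such as 0.32 for Pttg1 in global KO and 0.27 for Cks1b in EC KO.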
